A study of Drosophila melanogaster with 14 samples.

Results

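The insertions of 3 LINE families, I-element, Ivk and Cr1a, were taken from lists of transposable element (TE) insertions absent from the dm6 genome of Drosophila melanogaster. Every listed insertion that carried 1 of these family names was kept, which gave 986 of 20426 records. Of these, 303 were named I-element, 135 Ivk and 548 Cr1a, and no record carried the plain name I. All libraries came from 1 line that carried w, tj-GAL4 and, on a further chromosome, tubP-GAL80[ts] with sh-piwi. The tj-GAL4 driver expresses this hairpin against piwi in the somatic follicle cells of ovaries, and GAL80ts, a temperature-sensitive repressor, holds it back. The no-KD pool was 1 library from embryos of 3 to 17 h after laying, from flies kept at 20°C and read at 100 nt. The piwi-sKD pool was 1 library after a shift from 20°C to 25°C for the last 5 days, labelled as adult flies but described in the methods of the study as embryos laid by the daughters of treated mothers. The other 12 libraries were single adult flies labelled with that shift and read at 125 nt, which the study places in the generation of the piwi-sKD pool.

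LINEs are retrotransposons without long terminal repeats. They are copied by reverse transcription directly at the target site, and many copies are truncated at the 5′ end. I-element is known from I-R hybrid dysgenesis in Drosophila, in which crosses of reactive females with inducer males set off its transposition in the female germline of the daughters, and maternally deposited piRNAs hold it in check. Ivk is a LINE related to I-element, and Cr1a belongs to the CR1 type of LINEs. Piwi is the nuclear Argonaute protein that, guided by piRNAs, silences TEs, and the design removes it from somatic follicle cells rather than from germ cells.

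The lists held 4356 records with 38580 supporting reads in the no-KD pool, 5096 records with 47733 reads in the piwi-sKD pool, and 537 to 1307 records with 1774 to 5901 reads per fly. A record needed at least 2 supporting reads, and 48.6% ± 4.79 (SD, n = 12) of all records of a fly stood at that minimum. Each pool was 1 library, so differences between pools have no replicate check. Pools and flies also differed in sequencing site, read length, number of supporting reads and, at least for the no-KD pool, stage (embryos against adults). None of these can be told apart from pooling. Intervals below cover counting error only. They take counts as independent, although both pools list many of the same sites and a library can list several records close together. Supporting reads without molecular identifiers are not independent molecules either.

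Cr1a was the most frequent of the 3 families in each of the 14 libraries and Ivk the least frequent. I-element had 59 records in the no-KD pool and 66 in the piwi-sKD pool, and a fly had between 8 and 22, with a median of 15. Ivk had 19 and 30 records in the pools and 2 to 11 in a fly, with a median of 7.5. Cr1a had 108 and 153 in the pools and 13 to 44 in a fly, with a median of 22.5. As a share of all records of a library, I-element made up 1.35% in the no-KD pool, 1.30% in the piwi-sKD pool and 1.598% ± 0.326 (SD, n = 12) in the flies. The shares of Ivk were 0.436%, 0.589% and 0.780% ± 0.1999, and those of Cr1a were 2.48%, 3.00% and 2.62% ± 0.568. The values of both pools lay within the range of the flies for each family.

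**Figure D1:**
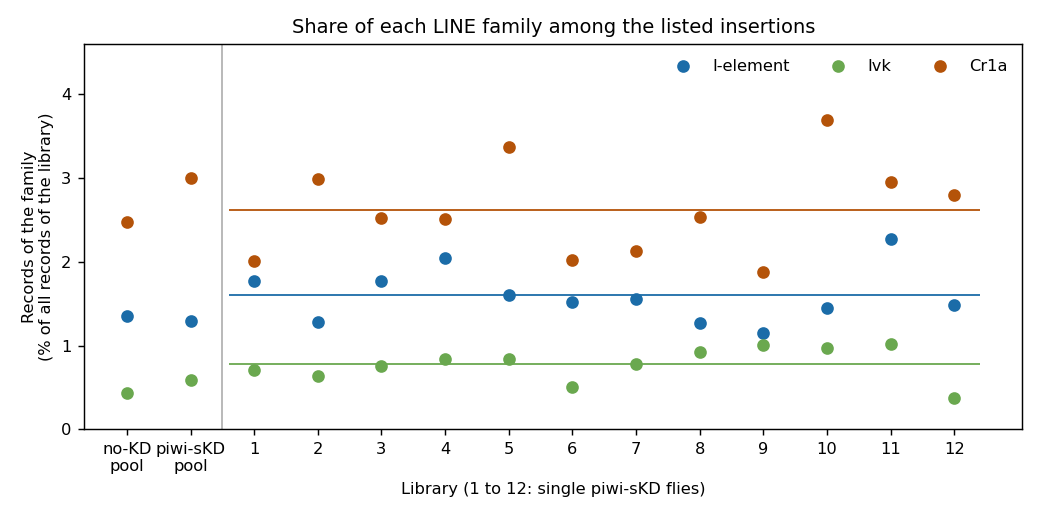
Records of each family as a percentage of all records of the library (vertical axis) for the 2 pools and the 12 single piwi-sKD flies (horizontal axis), with 1 point per library and a line at the mean of the flies. Cr1a is the highest and Ivk the lowest point in every library, and the flies spread around means of 2.62%, 1.598% and 0.780% for Cr1a, I-element and Ivk.

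Flies with more records of other families also had more records of these 3. Across the 12 flies, the number of I-element records followed the number of other records with a Pearson's r of 0.844 (permutation test, two-sided, p = 5.90e-04, adjusted p = 0.00177) and a Spearman's rho of 0.882 (p = 3.20e-04, adjusted p = 0.00177). With the 2 flies of most extreme record number left out, r was 0.794 (adjusted p = 0.0195). For Ivk, r was 0.765 (p = 0.00350, adjusted p = 0.00525) and rho 0.703 (p = 0.0135), and for Cr1a, r was 0.779 (p = 0.00206, adjusted p = 0.00412) and rho 0.743 (p = 0.00753, adjusted p = 0.00904). Without the 2 extreme flies r was 0.455 (permutation test, adjusted p = 0.187) for Ivk and 0.588 (permutation test, adjusted p = 0.129) for Cr1a, so that passing the test rested on those flies, although r for Cr1a stayed above 0.5. In all 6 values were computed and adjusted together.

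Cr1a differed from the other 2 families in its position on the chromosomes, while I-element and Ivk were less clearly apart from each other. Pericentric here means the centromere-near end of the 5 major arms, which was set by round borders as 2L above 22 Mb, 2R below 6 Mb, 3L above 23 Mb, 3R below 5 Mb and X above 22 Mb, and the rest of these arms is called euchromatic. In a fly, 0% to 18.8% of the I-element records on these arms were pericentric, with a median of 10.6%. For Ivk the share ran from 0% to 60% with a median of 26.8%, on 2 to 11 records per fly, and for Cr1a from 71.4% to 94.7% with a median of 84.5%. The flies of I-element and Cr1a did not overlap, while Ivk spread over the range of I-element and up to 60%. The other records of the flies ranged from 27.1% to 36.8%, between I-element and Cr1a.

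The mean pericentric share of I-element was 10.1% ± 5.49 (SD, n = 12) against 30.9% ± 2.29 for the other records, a difference of -20.8 percentage points that was lower in 12 of 12 flies (exact paired permutation test over flies, two-sided, p = 4.88e-04, adjusted p = 0.00112). This p is the smallest that 12 flies can give. Cr1a had 83.0% ± 7.77 against 29.3% ± 2.03, a difference of 53.8 points that was higher in 12 of 12 flies (same test and adjusted p). Ivk had 26.2% ± 16.2 against 30.6% ± 2.24, a difference of -4.44 points with an SD of 16.2 that did not pass (exact permutation test, adjusted p = 0.429). Such differences were common, since 40% of the 85 families tested were called higher than the other records of a fly and 41.2% lower. Among 25 other LINE families of a set list, 13 were called higher and 9 lower. That list is partial and leaves out Q-element, for example. Between the families, the difference was -72.9 ± 9.44 points for I-element minus Cr1a (lower in 12 of 12 flies), -56.9 ± 17.9 for Ivk minus Cr1a (12 of 12) and -16.0 ± 16.6 for I-element minus Ivk (10 of 12), with exact permutation p-values adjusted over the 3 pairs of 7.32e-04, 7.32e-04 and 0.00879. The flies come from 1 line and share standing insertions, so these p-values describe the spread among these flies and not independent draws of insertions.

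Where the border is drawn changed the size of these differences. With the borders 1 Mb farther from the centromere, the difference of I-element from the other records was -6.04 points and no longer passed (adjusted p = 0.109), and that from Ivk was -0.651 points (adjusted p = 0.923). In that strip lie 3 of the 35 euchromatic I-element loci, with 43 records, of which the 2 on 3R are described below. With the borders 1 Mb nearer to the centromere, Cr1a was 14.4 points above the other records in place of 53.8 and still passed (adjusted p = 0.00180). The other differences shrank as well and passed, to -26.8 points for I-element minus Cr1a, -17.6 for Ivk minus Cr1a, -12.9 for I-element minus the other records and -9.18 for I-element minus Ivk. Of Cr1a, 46 of its 168 pericentric loci with 181 records lie in that strip. The densest bin of 1 Mb for Cr1a, with 27 loci and 110 records, was 23 to 24 Mb of 3L and starts at the border. With support of at least 4 reads the difference of I-element from the other records was -4.64 points and did not pass (adjusted p = 0.649).

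The pools gave a similar order. In the no-KD pool 28.8% of I-element records were pericentric (Wilson 95% interval 18.8 to 41.4), 36.8% of Ivk records (19.1 to 58.96) and 91.6% of Cr1a records (84.3 to 95.7). In the piwi-sKD pool these shares were 23.1% (14.5 to 34.6), 46.7% (30.2 to 63.9) and 93.6% (88.2 to 96.6). Over all families the shares were 43.4% and 46.9% in the pools. Cr1a intervals did not overlap those of the other 2 families in either pool, whereas the I-element and Ivk intervals did.

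Support per record was compared in the same way. The mean of log2 supporting reads per record in a fly was 1.25 to 1.75 for I-element with a median of 1.38, 1.17 to 2.36 for Ivk with a median of 1.77, and 1.30 to 1.74 for Cr1a with a median of 1.53. The ranges of the 3 families overlapped. I-element averaged 1.43 ± 0.157 (SD, n = 12) against 1.601 ± 0.102 for the other records, a difference of -0.17 on the log2 scale that was lower in 11 of 12 flies (exact paired permutation test, two-sided, adjusted p = 0.00607). For Cr1a the difference was -0.08 (lower in 10 of 12, adjusted p = 0.0444), and it no longer passed when any 1 of 9 flies was left out. For Ivk it was 0.20 (higher in 11 of 12, adjusted p = 0.0595), and it passed without fly 9 (0.25, adjusted p = 0.00781). Of the 87 families tested 14.9% were called higher and 36.8% lower, so the lower support of I-element is shared by many families. Ivk records had more support than I-element records by 0.36 (11 of 12 flies, exact permutation p adjusted over the 3 pairs = 0.00439) and more than Cr1a records by 0.28 (11 of 12, adjusted p = 0.0110). With pericentric records only, where most Cr1a records lie, the latter difference was 0.13 (6 of 10 flies) and did not pass (exact permutation test, adjusted p = 0.423). The difference of I-element from the other records was 0.15 with pericentric records only (11 flies, exact permutation test, adjusted p = 0.567), and as a share of records at 2 reads it did not pass either (adjusted p = 0.300).

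Records of a family within 500 bp of each other over all libraries were joined into loci, since a library could list several records of a family close together. This gave 60 I-element, 26 Ivk and 196 Cr1a loci. The counts depend on the settings. Over 3 alternatives of joining distance and support minimum they ran from 28 to 80 for I-element, 13 to 39 for Ivk and 51 to 261 for Cr1a. Of the I-element loci 32 were listed in both pools, 34 in at least 1 fly and 12 in 6 or more flies, and 22 of them (36.7%) came from a single library. For Ivk, 12 of 26 loci were in both pools, 14 in at least 1 fly and 8 in 6 or more flies. For Cr1a, 62 of 196 were in both pools, 88 in at least 1 fly, 16 in 6 or more flies and 105 (53.6%) in a single library. Cr1a loci were also the weakest, as 113 of them (57.7%) never had a record above 2 reads, compared with 20 I-element and 9 Ivk loci. Over the 102 families with at least 10 loci, the median family had 42.9% of its loci in both pools, 44.0% in at least 1 fly and 44.0% in a single library. The median share in 6 or more flies was 8.74%, and 11.1% over the 31 families of the LINE list among them. That share was 20% for I-element, 30.8% for Ivk and 8.16% for Cr1a.

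**Figure D2:**
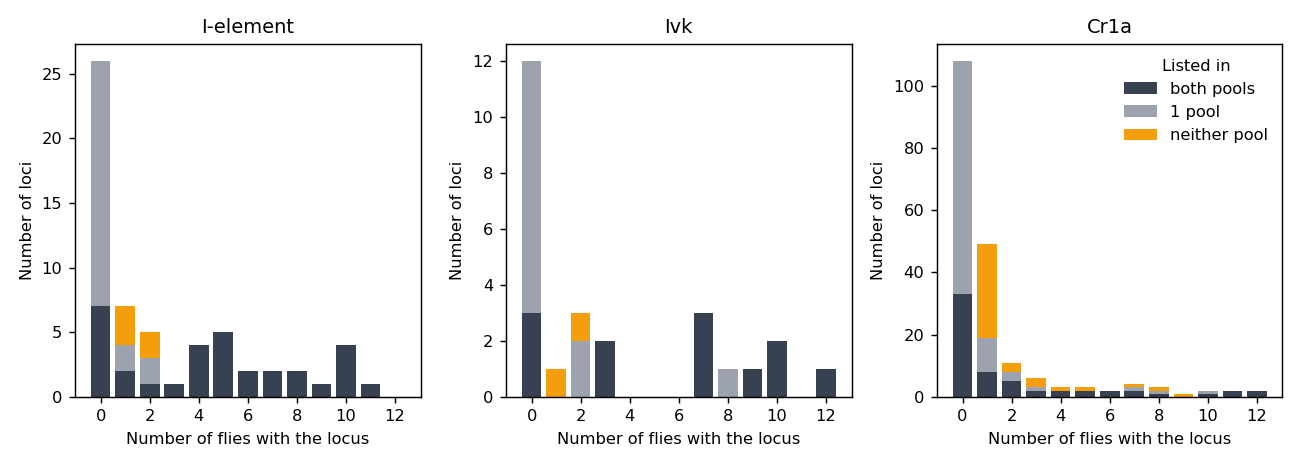
Number of loci (vertical axis, with its own scale in each panel) by the number of flies in which the locus was listed (horizontal axis, 0 to 12) for each family, with colours for loci listed in both pools, in 1 pool or in neither. All I-element loci in 3 or more flies are in both pools, whereas Cr1a has 49 loci in exactly 1 fly, 30 of them in neither pool.

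I-element loci in euchromatin and near the centromere differed in support. The 35 euchromatic loci held 250 of the 303 records, with a median of 39 reads over all libraries, and 27 of them (77.1%) were in both pools and 28 (80%) in at least 1 fly. The 23 pericentric loci had a median of 3 reads, with 5 in both pools and 5 in at least 1 fly. They made up 39.7% of the I-element loci on the major arms, against a median of 71.5% over the 102 families with at least 10 loci. Of the 18 pericentric I-element records in flies, 12 came from a single locus, 3L:24496073-24496378, which had 11 reads in each pool and 2 to 8 reads (median 4) in 10 flies. By arm, all 15 loci on 2L were euchromatic, while 11 of the 14 on 2R were pericentric. Chromosome 4 held 2 loci with 3 records and the Y chromosome held 0.

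The I-element loci with most reads lay in euchromatin and were present in both pools, mostly with several flies. The strongest, 3L:93094-93315, lay in no gene span and had 33 reads in the no-KD pool, 41 in the piwi-sKD pool and 2 to 8 reads (median 3.5) in 10 flies. The most widespread, 3R:5763506-5763726 in CG2082, had 19 and 23 reads in the pools and 2 to 8 reads (median 5) in 11 flies. At 3R:12393851-12394213, within the overlapping spans of Sol1, CG10096 and CG10097, 31 and 22 reads were listed in the pools and 2 to 5 in 10 flies. These 3 loci thus had similar support in both pools and were absent from the lists of only 1 or 2 flies.

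Other strong I-element loci were found in fewer flies. The locus 3R:5332351-5332463 in mtd had 31 reads in the no-KD pool, 36 in the piwi-sKD pool and 2 to 4 reads in 6 flies. In CadN2, which encodes an N-cadherin, 2L:17843874-17844087 had 30 and 24 reads and was listed in 4 flies. In vib, which encodes a phosphatidylinositol transfer protein, 3R:19219884-19220001 had 22 and 28 reads and was listed in 5 flies. The locus 2L:25650-25846 in Cda5, a chitin deacetylase gene near the end of the arm, had 15 and 29 reads in the pools and 2 to 7 reads in 8 flies. The piwi-sKD value was the higher at 3 of these 4 loci in raw reads, which is not corrected for the ratio of 1.24 between the whole libraries. Of the 32 I-element loci in both pools, 16 lay above that ratio.

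Of the 60 I-element loci, 3 were listed in exactly 1 fly and neither pool. They were 3L:8791319 in Fhos, a formin gene, with 3 reads, X:12168177 in Ten-a, a teneurin gene, with 3 reads, and 3R:27725617 in no gene span with 2 reads. All 3 were euchromatic single records at or next to the support minimum.

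The 5 strongest of the 26 Ivk loci held 63.8% of its pool reads. For I-element the value was 29.5% and for Cr1a 29.7%, but these families had 60 and 196 loci. A fixed 5 loci is a larger part of Ivk, so these values do not rank the families by concentration. The 8 Ivk loci in 6 or more flies held 90.7% of its fly reads, against 67.6% in 12 I-element loci and 71.7% in 16 Cr1a loci. The locus 2R:16641981-16642092 in gprs was the only locus of I-element or Ivk listed in all 14 libraries, with 37 and 38 reads in the pools and 2 to 15 reads (median 8) in the 12 flies. At 2L:17089799-17089987, in no gene span, 21 and 42 reads were listed in the pools and 2 to 5 in 9 flies. At 3R:22328355-22328423, also in no gene span, 18 and 29 reads were listed in the pools and 2 to 8 in 10 flies. The locus in lab, a homeotic gene, at 3R:6672009-6672312 had 9 and 17 reads in the pools and 2 to 6 in 10 flies, and that in Ccn at 3L:17715199-17716018 had 16 and 10 reads in the pools and 2 to 6 in 7 flies. Among these 5 euchromatic loci the piwi-sKD reads were the higher at 4, by 1 read at the first. This is a raw count, and of the 12 Ivk loci in both pools 4 lay above the library ratio of 1.24.

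Other Ivk loci were listed in fewer flies. The locus 3R:5442387-5442623 in CG14669, within 1 Mb of the border, had 10 and 19 reads in the pools and was listed in 3 flies. The pericentric locus 3R:4147903-4148119 had 16 and 18 reads and was listed in 3 flies. Less than 3 kb away, 3R:4145139 was the single Ivk locus found in 1 fly and neither pool, with 4 reads. Over the whole family 15 of 26 loci were pericentric (57.7%, against the median of 71.5% over 102 families), but these held 45 of the 135 records.

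Cr1a had 168 pericentric, 16 euchromatic, 5 chromosome 4 and 7 Y-linked loci. With 91.3% of its loci on the major arms in the pericentric part, Cr1a ranked 24 among the 102 families with at least 10 loci. Its strongest loci in the flies were 4:934050-934716 and 3L:27328317-27328665, the latter in the span of Dbp80, a DEAD-box RNA helicase gene, and both were listed in all 14 libraries. The first had 16 reads in the no-KD pool, 32 in the piwi-sKD pool and 5 to 25 reads (median 11.5) in the 12 flies, and it lay within 500 bp of records of the DNA transposon 1360. The second had 39 and 35 reads in the pools and 3 to 13 (median 8) in the flies. The locus 3L:23204271-23204407 followed, with 31 and 43 reads in the pools and 4 to 13 reads (median 9) in 11 flies.

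Another 3 Cr1a loci ranked among the highest in the pools but were rare in the flies. The locus 3L:23940506-23940625 in CG40470 had the most pool reads of any locus of the 3 families, 50 and 59, but was listed in 2 flies with 3 and 5 reads. In Myo81F, a myosin gene, 3R:2518120-2518412 had 35 and 43 reads in the pools and 2 reads in each of 3 flies. At 3R:2541799-2541898, 40 and 32 reads in the pools stood against 2 reads in 1 fly. These 3 loci were pericentric and had more than 30 reads in each pool.

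The euchromatic Cr1a loci had few reads. In tyn, X:160392-160810 had 9 and 7 reads in the pools and 2 to 6 in 7 flies, and X:167997-168137 had 7 and 6 reads in the pools and 2 to 3 in 5 flies. In CG8671, 2L:21272324-21272517 had 2 reads in each pool and 2 to 4 in 7 flies, and 2L:21271669-21271821, less than 1 kb away, was listed in neither pool but in 7 flies. The locus 3L:18590699-18591276, in no gene span, had 3 reads in the no-KD pool, was not listed in the piwi-sKD pool and was listed in 8 flies with 2 to 6 reads. Within 500 bp of it, the pools held 2 records named Q-element. The last 2 Cr1a loci were listed in more than 6 of the 12 flies although no pool list held more than 3 Cr1a reads there.

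Of the 196 Cr1a loci, 30 were in 1 fly and neither pool, against 3 of 60 for I-element and 1 of 26 for Ivk. This count was not taken over all families. The best supported of the 30 Cr1a loci were 3L:19470813-19470824 with 5 reads, which lay within 500 bp of Q-element records, and 2R:3934759 in uex, a magnesium transporter gene, with 3 reads. The next 3 by the naming rule, 2L:23244739, 2R:969988 and 2R:1581367, had 2 reads each. The 7 Cr1a loci on the Y chromosome had 18 records in the pools and 0 in the flies. Y records of all families were also scarcer in the flies. The pools held 302 of 4356 and 351 of 5096 records on the Y, whereas a fly with 537 to 1307 records held 8 to 19. Whether Cr1a departed from this was not tested.

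Flies shared their loci to different degrees. For an ordered pair of flies, a median of 55.0% of the I-element loci of the first were also listed in the second, compared with 66.7% for Ivk and 46.1% for Cr1a. These medians are over 132 ordered pairs of the same 12 flies and describe detection as well as presence, since a fly listed 7 to 20 I-element, 2 to 10 Ivk and 11 to 38 Cr1a loci. Among loci listed in a pool, those with more pool reads were listed in more flies. Spearman's rho across these loci was 0.765 for I-element (55 loci), 0.674 for Ivk (24) and 0.432 for Cr1a (155), where all loci share the same libraries. For Ivk this held in euchromatin (0.878, 11 loci) but not in the pericentric part (0.0346, 13 loci). In these parts rho was 0.559 and 0.415 for I-element, and 0.361 and 0.479 for Cr1a. Loci in neither pool, 5 of I-element, 2 of Ivk and 41 of Cr1a, are left out.

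The study compared the pools to find families with insertions that arose after piwi-sKD. I-element and Cr1a had slightly more records in the piwi-sKD pool, by a ratio of 1.12 (exact 95% interval 0.775 to 1.62) and 1.42 (1.10 to 1.83), and Ivk by 1.58 (0.860 to 2.97), against 1.17 (1.12 to 1.22) for all records. The supporting reads were 444 and 567 for I-element, 165 and 224 for Ivk, and 598 and 771 for Cr1a, with ratios of 1.28, 1.36 and 1.29 against 1.24 for all records. All 3 record intervals included the ratio of all records. At the 32 I-element loci listed in both pools the median ratio of piwi-sKD to no-KD reads was 1.226, with 16 above the ratio of the libraries. The median was 0.942 at 12 Ivk loci, with 4 above it, and 1.17 at 62 Cr1a loci, with 27 above it.

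**Figure D3:**
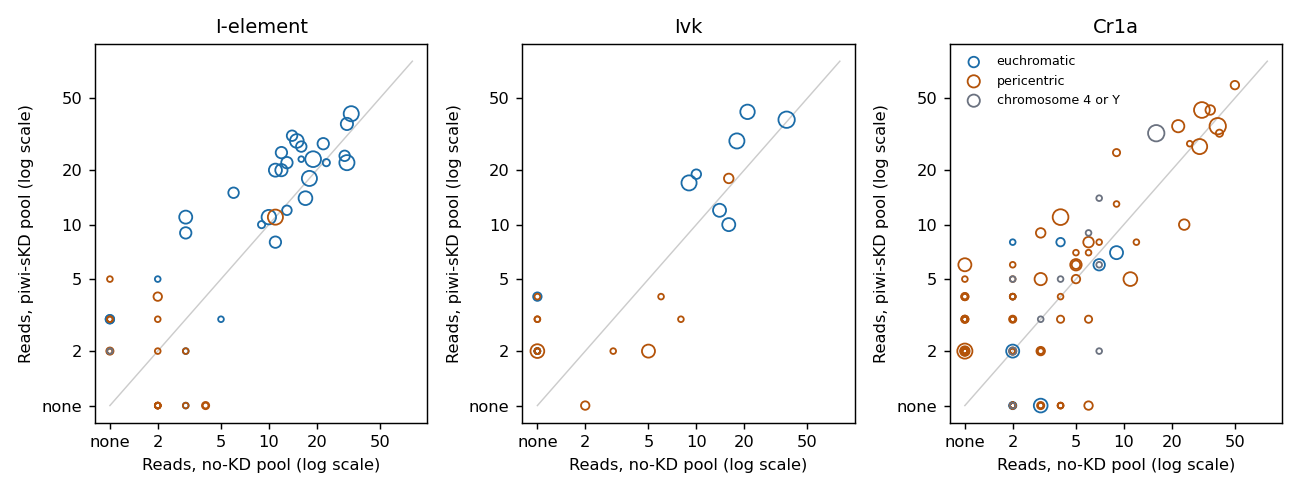
Supporting reads per locus in the piwi-sKD pool (vertical axis) against the no-KD pool (horizontal axis), both on log scales with loci not listed in a pool placed at none, for loci listed in at least 1 pool. Larger circles were listed in more flies, colours give the part of the chromosome, and the line marks equal reads. Loci listed in 1 pool reach at most 6 reads, while strong loci of each family lie near the line.

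A pool-specific record had no record of any family within 20 bp in the other pool. Of the I-element records, 36 were specific to the piwi-sKD pool and 28 to the no-KD pool, a ratio of 1.29 (exact 95% interval 0.763 to 2.19). Ivk had 22 and 11, a ratio of 2 (0.930 to 4.57), and Cr1a 119 and 76, a ratio of 1.57 (1.16 to 2.12). Over all families the counts were 2870 and 2135, a ratio of 1.34, and the typical family, by the median of 94 with 10 or more specific records, had 1.35. The 3 intervals include both values. In Fisher's exact test of a family against all others (two-sided, Benjamini-Hochberg over 114 families) the adjusted p was 1 for each of the 3, with exact p-values of 0.899, 0.296 and 0.302. Called families numbered 0 of 114 (0%), and 2 had an unadjusted p under 0.05, neither of them among the 3. The test compares 2 libraries and not 2 conditions.

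Many pool-specific records were near matches. Of the 36 and 28 specific I-element records, 23 and 16 had an I-element record of the other pool within 500 bp, which left 13 and 12. For Ivk this left 13 and 1, and for Cr1a 68 and 32. At the level of loci, 13 I-element loci were in the piwi-sKD pool but not in the no-KD pool and 10 the other way, with at most 5 and 4 reads. For Ivk these counts were 11 and 1, with at most 4 and 2 reads, and for Cr1a 64 and 29, with at most 6 reads on each side. Over all families, 1356 of 5277 loci were in the piwi-sKD pool and not in the no-KD pool and 776 the other way, a ratio of 1.75, with a median of 1.65 over the 56 families with at least 10 such loci. A ratio as high as that of Ivk or higher was found in 3 of these 56 families, Ivk included, and 7 of the 11 Ivk loci stood at 2 reads. With support of at least 4 reads, 7 Ivk records were specific to the piwi-sKD pool and 11 to the no-KD pool, a ratio of 0.636 in place of 2, whereas with a window of 100 bp the counts were 18 and 5, a ratio of 3.6 (exact p = 0.0898, adjusted p = 1).

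Euchromatic loci listed in the piwi-sKD pool and not in the no-KD pool numbered 4 for I-element, 4 for Ivk and 3 for Cr1a, and these are named although the naming rule does not cover them, after their values were seen. The I-element loci were 2L:176480 in spen with 2 reads, 2L:1765297 with 3 reads, 2L:1817671-1817701 with 3 reads and X:8308737-8309038 in nAChRalpha3, a nicotinic acetylcholine receptor subunit gene, with 3 reads. The last 2 were also listed in 2 flies each. The Ivk loci were 2L:15902377-15902829 in CG31821 with 4 reads and 2 flies, 3R:10201251 in Syn, the synapsin gene, with 2 reads, and X:1367938 and X:21464047 with 2 reads each. The Cr1a loci, 2L:20119730, 3L:9443485 in Srg3 and 3R:8042778-8042912 in CG43060, had 2 reads each, and the third was listed in 2 flies. None of these 11 loci had more than 4 reads in the pool, and 4 of them were also listed in flies.

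The single flies were also set against the no-KD pool, by the share of their records with a no-KD record of any family within 20 bp. For I-element this share was 50.0% to 87.5% in a fly, with a median of 64.6%. For Ivk it was 22.2% to 50.0% with a median of 34.8%, and for Cr1a 11.5% to 46.2% with a median of 28.3%. I-element lay at or above the Ivk and Cr1a range in all flies, and the other records ranged from 42.3% to 51.5%.

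**Figure D4:**
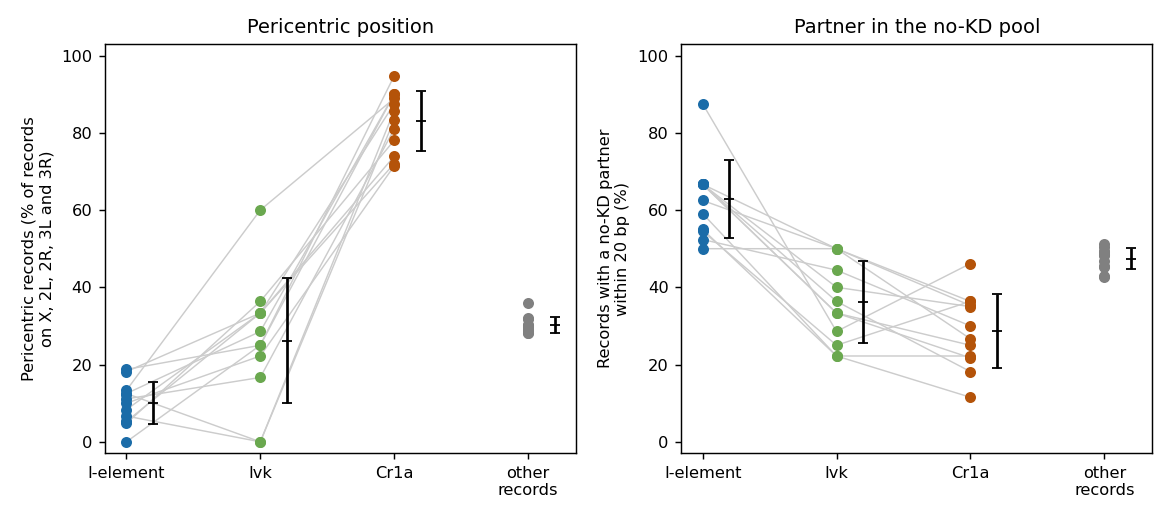
Pericentric share (left) and share with a no-KD record within 20 bp (right), both in percent of the family's records (left: those on the 5 major arms), for I-element, Ivk, Cr1a and all other families together in the 12 single piwi-sKD flies. Each point is a fly, grey lines join a fly, and bars give mean ± SD (10.1%, 26.2% and 83.0% on the left, 62.9%, 36.3% and 28.7% on the right), so I-element is lowest on the left and highest on the right.

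I-element averaged 62.9% ± 10 (SD, n = 12) against 47.1% ± 2.83 for the other records, a difference of 15.8 ± 9.28 points that was higher in 11 of 12 flies (exact paired permutation test, two-sided, adjusted p = 0.00405). Cr1a averaged 28.7% ± 9.63 against 47.9% ± 2.69, a difference of -19.1 ± 8.52 points that was lower in 12 of 12 (adjusted p = 0.00354). Ivk averaged 36.3% ± 10.6 against 47.4% ± 2.81, a difference of -11.1 ± 9.98 points that was lower in 10 of 12 (adjusted p = 0.0126). Of the 87 families tested 21.8% were called higher and 28.7% lower, and among 25 other families of the LINE list 0 were called higher and 8 lower. I-element exceeded Cr1a by 34.2 ± 10.1 points (12 of 12 flies) and Ivk by 26.6 ± 15.5 points (11 of 12, with 1 tie), each with an exact permutation p adjusted over the 3 pairs of 0.00146. Ivk and Cr1a differed by 7.58 ± 11.98 points (adjusted p = 0.0547). With support of at least 4 reads I-element was 19.4 points above the other records but did not pass (adjusted p = 0.113), Ivk was 1.42 points above them (adjusted p = 0.831), and I-element exceeded Ivk by 15.3 points without passing (adjusted p = 0.289).

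Since the families differed in position, this share was also taken within each part of the arms, a split chosen after seeing the data. In euchromatin I-element was 8.03 points above the other records (10 of 12 flies, exact permutation test, adjusted p = 0.0375), Ivk -10.3 points (11 of 12 lower, adjusted p = 0.00720) and Cr1a -17.7 points with an SD of 33.3 (adjusted p = 0.150). In the pericentric part I-element was 43.5 points above (11 flies, exact permutation test, adjusted p = 0.0190), a value carried by few records, 12 of 18 of them from the single 3L locus given above. Cr1a was -8.64 points there (11 of 12 lower, adjusted p = 0.00651). The sign of Ivk also depended on how partners were matched. With a no-KD record of the same family within 500 bp its difference from the other records was 4.91 points (adjusted p = 0.231), and I-element exceeded it by 9.73 points (adjusted p = 0.0117).

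Gene spans held many of the loci. Of the euchromatic I-element loci 25 of 35 lay in a gene span (71.4%, Wilson 95% interval 54.9 to 83.7), against 63.0% (60.9 to 65.0) for all families. Of the pericentric Cr1a loci 84 of 168 did (50.0%, 42.5 to 57.5), against 46.5% (44.6 to 48.5) for all families. Of the euchromatic loci of Ivk 54.5% (28.0 to 78.7) and of Cr1a 50% (28.0 to 72.0) lay in a gene span, and of the pericentric loci of I-element 52.2% (33.0 to 70.8) and of Ivk 46.7% (24.8 to 69.9). Each of the 6 intervals includes the value of all families in that part, but those of 35 or fewer loci are wide. The gene table gives spans but no exons, so exonic and intronic positions are not distinguished.

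Within 500 bp, 49 of 196 Cr1a loci (25%, Wilson 95% interval 19.5 to 31.5) had a record of another family, close to the 24.8% (23.6 to 25.97) of loci of all families. The share was 7 of 60 I-element loci (11.7%, 5.77 to 22.2) and 3 of 26 Ivk loci (11.5%, 4 to 29.0). In the pericentric part it was 21.4% (15.9 to 28.2) for Cr1a and 28.5% (26.8 to 30.3) for all families, and in euchromatin 43.8% (23.1 to 66.8) on 16 Cr1a loci against 16.2% (14.7 to 17.8). The most frequent neighbour was Q-element, another LINE, at 22 of these 49 Cr1a loci (11.2% of all 196). Of the 237 Q-element records of the series, 65 (27.4%) lay at these 22 loci. This share was not taken for other families, so whether it is high is not known. Both families were mostly pericentric, with 90% of Q-element and 91.3% of Cr1a loci on the major arms in that part. How far this shared position accounts for the share was not tested. The next neighbour, X-element, was found at 4. In the same library, 26 Q-element records lay within 500 bp of a Cr1a record and 3 within 20 bp, so the 2 names were mostly given in different libraries or at a distance. Whether such sites are 1 insertion matched to either of 2 names was not tested.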

How the data were processed

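A deposited list names, for every insertion absent from dm6, its position, its TE family and its support. The authors mapped reads with BWA (0.7.5a-r405 and 0.7.10-r789 in the submitters' processing notes, the first for the pools and the second for the flies) and called insertions with T-lex de novo from uniquely mapped clipped reads and pairs with 1 mapped end, compared with the first and last 600 bases of canonical TEs. Copies present in dm6 are therefore not listed. For the flies and the piwi-sKD pool, the deposited support values were taken as counts of reads. For the no-KD pool the deposited values are a signal of which 100% are whole multiples of 1.23 (tolerance 0.01 steps). They were taken as scaled read counts and divided by this factor, which was inferred from the values and is not stated for that list. The pools were sequenced to unequal depth, and the study subsampled the piwi-sKD reads to match. Those subsamples were not used here. Positions are as deposited. Their base (0 or 1) is not given in the sources used here, which leaves an uncertainty of 1 base. Labels and methods differ on the library kit of the flies.

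Groups came from the sample titles. Fits ran over all families. Tests were Fisher's exact test per family (at least 5 pool-specific records), exact paired sign-flip tests over the 12 flies (families in at least 10 flies) and 100000-draw permutation correlations, with Benjamini-Hochberg adjustment at 0.05. Gene spans came from the RefSeq table of Release 6, and none of its coordinates are printed. Named loci were those in all 12 flies, the 5 with most pool reads, the 5 best supported euchromatic loci and up to 5 in 1 fly and neither pool. Members and lists were chosen with earlier results of these data known. Alternatives were other windows, matching, borders, support minimums, merging distances and leaving out flies. The family tests were also run on simulated lists with known changes, in which every fly record was drawn independently. Real flies of 1 line share insertions, so that run cannot show how the fly tests behave under such sharing. Python 3.11.15, numpy 2.4.6, pandas 2.3.3, scipy 1.17.1 and matplotlib 3.10.9 were used. No sequence is printed, since no genome or TE sequence was used here.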

Additional observations from a re-analysis of the deposited data

How the results depend on the processing

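No paired analysis was possible because the 2 pools were single libraries and fly numbers pair no samples between groups (tests over flies compared families within a fly). Most records had 2 to 4 reads, which limits every count of absence, and each pool had no replicate.

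With support of at least 4 reads the pool-specific ratio was 1.30 for I-element and 0.636 for Ivk, each then on the other side of the ratio of the remaining families. At that support, pericentric calls numbered 35 (69 in the main analysis), I-element minus other records was -4.64 points and minus Ivk -8.85. Calls for the no-KD partner numbered 21 (44), with I-element minus other records 19.4, Ivk minus other records 1.42, Ivk minus Cr1a 22.1 and I-element minus Ivk 15.3 points, of which only Ivk minus Cr1a passed. Loci fell to 28 for I-element (18 in a fly, 2 in 6 or more flies), 13 for Ivk (9 and 2) and 51 for Cr1a (28 in both pools, 21 and 4). With borders 1 Mb farther from the centromere, I-element was -6.04 points from the other records and -0.651 from Ivk.

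For support measured as the share at 2 reads, with the sign turned, 8 families were called (45 in the main analysis), I-element minus other records was -5.18 points, Cr1a -5.99 and I-element minus Cr1a 0.710. With euchromatic records only 26 families were called, and I-element minus Cr1a was 0.15 on the log2 scale. With pericentric records only 21 were called, I-element minus other records was 0.15, Cr1a -0.0279, I-element minus Cr1a 0.18 and Ivk minus Cr1a 0.13, of which none passed. The cause of these changes was not tested.

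For the no-KD partner, Ivk minus Cr1a was 10.8 points with a partner of the family itself within 20 bp and 23.2 within 500 bp, where Ivk minus other records was 4.91. In euchromatin Cr1a minus other records was -17.7, and in the pericentric part 21 families were called, Ivk minus other records was -19.4 and Ivk minus Cr1a -10.4. Without the 2 extreme flies the correlation with other records was 0.455 (rho 0.480) for Ivk and 0.588 (rho 0.578) for Cr1a.

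Leaving out each fly, the pericentric differences from the other records ran from -21.7 to -19.8 points for I-element, -7.58 to -2.19 for Ivk and 52.6 to 54.8 for Cr1a, and between families from -74.5 to -71.4 (I-element minus Cr1a), -59.4 to -54.3 (Ivk minus Cr1a) and -18.6 to -13.3 (I-element minus Ivk), with 65 to 74 calls. Support differences ran from -0.20 to -0.16 for I-element, 0.15 to 0.25 for Ivk, -0.0993 to -0.0631 for Cr1a, -0.115 to -0.0638 for I-element minus Cr1a, 0.24 to 0.34 for Ivk minus Cr1a and -0.41 to -0.31 for I-element minus Ivk, with 38 to 49 calls. Cr1a support lost its call without fly 2, 3, 4, 5, 7, 8, 10, 11 or 12, I-element minus Cr1a gained one without fly 2 or 5, and Ivk without fly 9. Partner differences ran from 13.9 to 17.2 points for I-element, -12.3 to -9.76 for Ivk, -20.4 to -18.0 for Cr1a, 32.8 to 35.6 for I-element minus Cr1a, 6.15 to 9.87 for Ivk minus Cr1a (called without fly 8 or 9) and 23.6 to 29.0 for I-element minus Ivk, with 39 to 46 calls. The other alternatives run kept direction and side of the threshold.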

Other observations

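Some loci were strong in the pools and rare in the flies, or the reverse, by limits set after the values were seen. With 20 or more reads over the 2 pools, listed in both and in at most 1 fly, there were 2 I-element, 0 Ivk and 6 Cr1a loci. The I-element loci were 2L:737992-738263 in Eaat2, an amino acid transporter gene, with 23 and 22 reads in the no-KD and piwi-sKD pools and 1 fly, and 2L:5472006-5472325 with 16 and 23 reads and 0 flies. Among the Cr1a loci was 3L:23608716-23608719 in the span of AGO3, an Argonaute gene of the piRNA pathway, with 26 and 28 reads and 0 flies.

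In the other direction, 3 Cr1a loci, 0 I-element and 0 Ivk loci were listed in 6 or more flies and neither pool. These were 2L:22773757-22773763 in 9 flies with 2 to 6 reads (median 4), 3L:23109291-23109475 in 8 flies with 2 to 5 reads, and the CG8671 locus 2L:21271669-21271821 in 7 flies. Within 500 bp of 3L:23109291-23109475, the pools held 4 records of another family, invader4. Whether these mark the same insertion was not tested. The CG8671 locus lies just past the joining distance of 500 bp from 2L:21272324-21272517, which both pools listed. Its place among the 3 therefore depends on that distance. The Cr1a locus 3L:23913917-23914419 in CG40470 was listed in 10 flies with 0 reads in the no-KD pool and 2 in the other. Pools and flies differed in read length, sequencing site, number of supporting reads and, at least for the no-KD pool, stage. The part of any of these in these loci was not tested.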
